A study of Homo sapiens with 24 samples.

Results

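The nuclear-encoded subunits of the mitochondrial respiratory chain were taken as the protein-coding genes whose symbol marks them as a subunit of complex I (NDUFA, NDUFB, NDUFC, NDUFS and NDUFV genes), complex II (SDHA to SDHD), complex III (UQCR genes) or complex IV (COX4 to COX8 genes). The rule named genes by symbol and used no measured value. It found 67 of the 33382 genes in the tables, of which 36 belong to complex I, 4 to complex II, 9 to complex III and 17 to complex IV. The remaining gene was NDUFA4, which carries a complex I symbol but is known to associate with complex IV and is described on its own. Subunits encoded by the mitochondrial genome were not analysed here.

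RNA was sequenced from SW480 and SW620 cells, a pair of human colorectal adenocarcinoma lines known to come from a primary tumour and a lymph node metastasis of the same patient. Each line carried a lentivirus encoding either Tet2CD, the catalytic domain of the DNA demethylase TET2, or an empty vector, and all the cells had been selected with puromycin at 5 µg/ml. By the sample descriptions, every line and construct received for 24 h either DMSO, the solvent control, TGFB1 at 4 ng/ml, the cytokine TGF-β1, or RepSox at 1 µM, an inhibitor of the TGF-β type I receptor kinase. These treatments are as the sample descriptions give them, while the study's text names a mix of TGF-β ligands, another dose of them and a longer exposure for both agents, so ligand, dose and duration are uncertain. The 12 groups held 2 libraries each, called replicate 1 and replicate 2, and nothing in the descriptions says that these came from separate infections or cultures, so the p-values measure the spread between libraries, which may be technical. The comparisons asked how respiratory chain transcripts differed with TGFB1, with RepSox, with Tet2CD and between the lines. In these bulk samples a lower share of expressing cells and less RNA per cell cannot be told apart.

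The respiratory chain passes electrons from NADH, through complex I, or from succinate, through complex II, to ubiquinone, then through complex III and cytochrome c to complex IV, which reduces oxygen to water. Complexes I, III and IV pump protons across the inner mitochondrial membrane, and ATP synthase uses that gradient to make ATP, while complex II is also an enzyme of the citric acid cycle. Most subunits are encoded in the nucleus, and their promoters are known for binding sites of NRF1, of ETS family factors such as GABP, and of YY1.

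A promoter window of 300 bases, from 250 before to 50 after a gene's start in RefSeq (GRCh38.p14), was available for 55 of the 67 genes, in 64 windows. Genes for which no window was used included UQCRB, UQCRHL, SDHC, NDUFA4, NDUFB5, NDUFB9, NDUFC2, NDUFS5, COX4I2, COX6C and COX7A1. Of the 64 windows, 15.6% held the NRF1 motif GCATGCGC on either strand, against 3.05% of the 35116 windows of all genes. The ETS motif CCGGAAG was in 23.4% of the windows against 10.3% of all, and the YY1 motif AAGATGGCG in 12.5% against 1.75%. At least 1 of the 3 motifs was found in 26 genes, or 40.6% of the windows, against 14% of all. CG dinucleotides had a median of 21.5 per window, against 14 for all genes. The 4 windows printed here belong to subunits that fell with TGFB1 in SW620 cells and are shown because they hold from 0 to 3 of the motifs. They are written 5′ to 3′ along the gene's strand, and capitals mark the motifs in either orientation. The SDHB window (chr1:17053983-17054282, minus strand) held 1 match of each motif, and the NDUFA7 window (chr19:8321326-8321625, minus strand) held 1 YY1 match. Neither the SDHA window (chr5:218070-218369, plus strand) nor the UQCRC2 window (chr16:21953111-21953410, plus strand) had a match, although the first had 41 CG dinucleotides and the second 14. A match describes these exact letters only. Variants of the motifs were not searched, so a window without a match may hold them, and binding was not measured.
SDHB: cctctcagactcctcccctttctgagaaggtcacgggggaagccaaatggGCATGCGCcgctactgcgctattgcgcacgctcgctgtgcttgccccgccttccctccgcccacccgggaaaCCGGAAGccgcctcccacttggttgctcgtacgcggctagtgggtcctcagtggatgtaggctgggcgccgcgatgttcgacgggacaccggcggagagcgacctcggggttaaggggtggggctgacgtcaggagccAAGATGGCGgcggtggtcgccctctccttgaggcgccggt
NDUFA7: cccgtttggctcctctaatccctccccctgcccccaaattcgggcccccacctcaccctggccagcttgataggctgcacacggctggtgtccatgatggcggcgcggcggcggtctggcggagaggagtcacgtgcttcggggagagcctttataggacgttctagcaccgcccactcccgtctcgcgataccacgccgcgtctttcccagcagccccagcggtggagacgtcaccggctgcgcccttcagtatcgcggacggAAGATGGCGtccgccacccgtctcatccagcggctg
SDHA: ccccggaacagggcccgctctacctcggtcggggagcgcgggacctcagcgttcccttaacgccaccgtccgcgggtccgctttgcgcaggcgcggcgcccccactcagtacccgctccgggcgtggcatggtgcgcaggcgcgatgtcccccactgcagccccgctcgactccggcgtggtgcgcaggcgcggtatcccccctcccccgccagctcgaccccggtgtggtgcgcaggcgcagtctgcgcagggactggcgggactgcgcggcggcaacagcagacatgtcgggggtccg
UQCRC2: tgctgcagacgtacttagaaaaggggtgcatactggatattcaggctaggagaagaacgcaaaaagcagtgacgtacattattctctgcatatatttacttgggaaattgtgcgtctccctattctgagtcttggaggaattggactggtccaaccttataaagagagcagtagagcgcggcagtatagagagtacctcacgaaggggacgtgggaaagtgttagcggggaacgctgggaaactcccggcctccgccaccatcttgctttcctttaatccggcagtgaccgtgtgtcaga

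Levels between genes are compared in TPM, a read share scaled by transcript length and library total. Of the 67 genes, 62 passed the filter on low counts and were tested. The 5 that did not are isoforms known from muscle, lung or testis. COX4I2, COX7B2 and COX8C had 3, 5 and 3 counts over all 24 libraries, COX7A1 had 15, and COX6A2 had 0. The testis isoform COX6B2 passed, with 720 counts in all and a mean of 9.30 TPM. UQCRHL, a near-identical copy of the complex III hinge gene UQCRH, passed with 161 counts and a mean of 1.41 TPM, and its share of the reads is uncertain. SDHA also has transcribed pseudogene copies, so the division of its reads is uncertain as well.

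The complexes were not at equal levels. The 12 tested complex IV genes had a median of 380 TPM (means over 24 libraries, 9.30 to 595), led by COX7C, a small structural subunit, at 595 TPM. The median of the 9 complex III genes was 209 TPM, and UQCRC1, a core protein of that complex, led at 450 TPM. For the 4 complex II genes the median was 161 TPM, with the flavoprotein SDHA highest at 188 TPM. The 36 complex I genes had a median of 156 TPM and ranged from 39.2 to 245 TPM, the highest being the accessory subunit NDUFB9. NDUFA4 stood at 360 TPM. Their transcripts were short, with a median of 725 bases against 2112 for all genes tested, and had a median GC content of 48.3% against 50.1%.

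Libraries 21, 22 and 23, the replicate 1 libraries of the 3 SW480 Tet2CD groups, stood apart from the other 21. The subunits took 0.951% of all counts in the DMSO library, 0.933% in the TGFB1 library and 1.24% in the RepSox library, against 0.674%, 0.522% and 0.666% in the replicate 2 libraries of the same groups. The other 21 libraries ranged from 0.399% to 0.676%, with a median of 0.550%, so none overlapped with the 3. Total counts were 2146123 to 4410567 per library (median 3653712). The 3 libraries also had the highest share of cytosolic ribosomal protein counts, at 10.8%, 12.6% and 16.1% against 6.15% to 9.98%. Their counts fell on transcripts with a higher mean GC content, of 52.4%, 53.2% and 53.6% against 49.5% to 51.7%, and a shorter mean length, of 2099, 2047 and 1820 bases against 2457 to 2888. Complex II did not follow, and took 0.0499%, 0.0326% and 0.0276% of TPM in these libraries against 0.0495% to 0.0831% in the others. TET2 reads, in which the construct and the cells' own gene cannot be told apart, were at 894, 827 and 270 CPM (counts scaled to library size, with TMM factors) in the 3 libraries and at 1849, 2640 and 1690 CPM in their replicates. SW620 Tet2CD libraries held 693 to 1276 CPM of TET2 and vector libraries 10.3 to 25.0 CPM. All 8 colon epithelium markers examined were detected, with 304 to 617 CPM of EPCAM, although CDH17 reached only 5.76 CPM and KRT20 3.19 CPM. The blood cell marker PTPRC did not exceed 0.261 CPM.

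**Figure D1:**
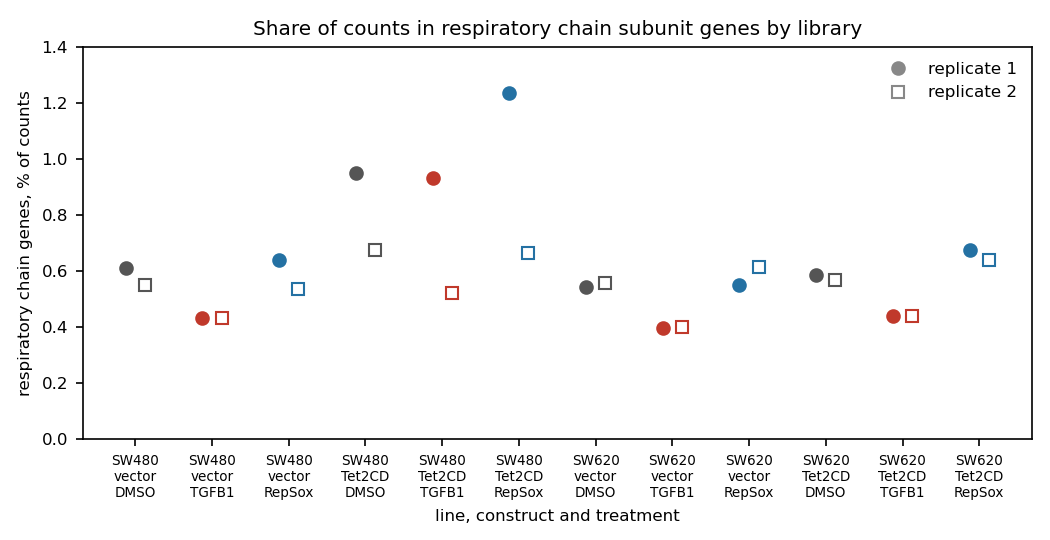
The share of each library's counts that fell on the 67 respiratory chain genes, in percent, for the 12 groups. Filled circles are replicate 1 and open squares replicate 2, in grey for DMSO, red for TGFB1 and blue for RepSox. The 3 SW480 Tet2CD replicate 1 libraries lie between 0.933% and 1.24%, above the other 21, and the TGFB1 libraries of SW620 lie below the DMSO libraries.

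Within these 3 groups, the 2 libraries differed most for short, GC-rich transcripts. The median subunit was higher in replicate 1 than in replicate 2 by 0.67 on the log2 scale with DMSO, 1.17 with TGFB1 and 1.24 with RepSox, and 59, 58 and 56 of the 62 tested genes were higher. In the other 9 groups that median lay between -0.24 and 0.27. Over the 62 genes, Spearman's rho of this difference was 0.54, 0.47 and 0.59 with GC content and -0.39, -0.51 and -0.46 with transcript length. Over 15266 genes of all kinds it was 0.41, 0.46 and 0.44 with GC content and -0.48, -0.51 and -0.46 with length. In the other 9 groups rho over the 62 genes was -0.55 to 0.11 with GC content and -0.24 to 0.22 with length. The points of one correlation share a pair of libraries, and genes are not independent replicates. Counts that rest on these libraries are given with 24 libraries and with 21. The main ones are also given with an offset for GC content and length that was chosen after seeing the data. With 21, only the replicate 2 library of each SW480 Tet2CD group remains, so these groups add nothing to the estimate of spread. Passing with 21 in a comparison that uses these groups therefore says nothing of their own scatter.

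**Figure D2:**
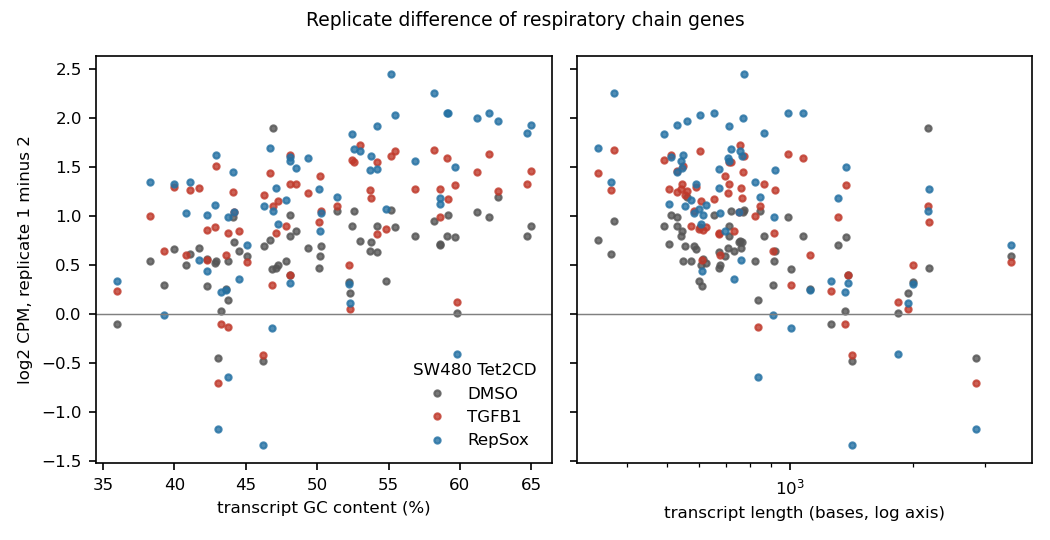
Replicate 1 minus replicate 2, in log2 CPM, for each of the 62 tested genes in the 3 SW480 Tet2CD groups, against the GC content of the transcript in percent and its length in bases. Most points lie above 0, and they rise with GC content and fall with length, with rho between 0.47 and 0.59 for GC content.

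**Figure D3:**
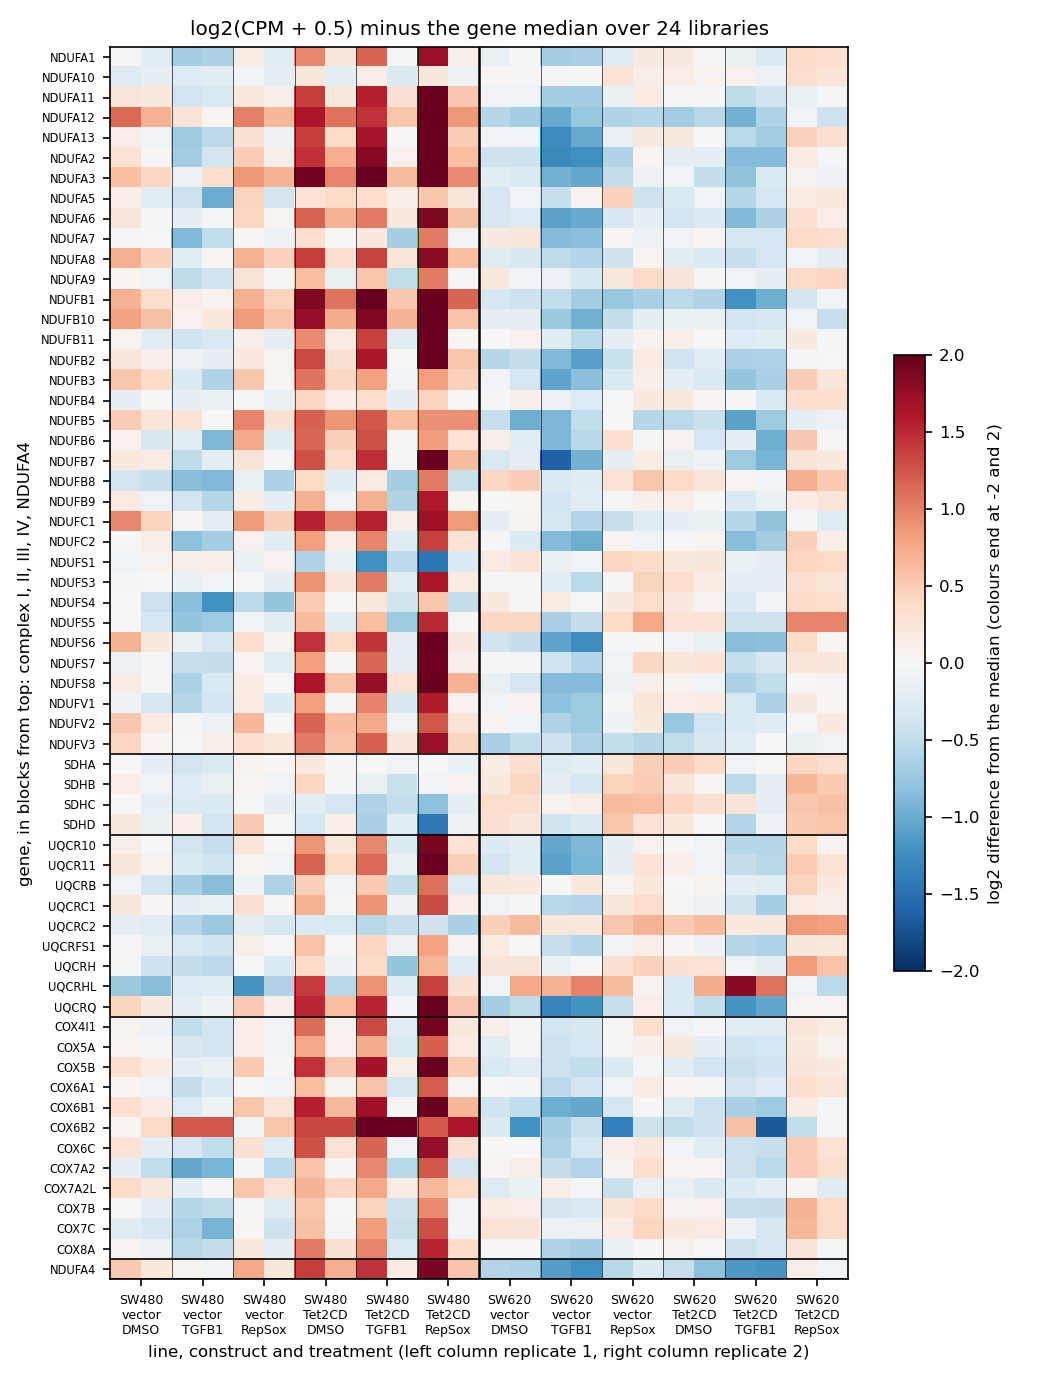
Level of the tested genes, except 1 that is not shown, in the 24 libraries, as log2(CPM + 0.5) minus the gene's median over libraries, with colours that end at -2 and 2. Genes are ordered by complex. The 3 SW480 Tet2CD replicate 1 libraries stand out as high for most genes of complexes I, III and IV, and the SW620 TGFB1 libraries are lower than the SW620 DMSO libraries.

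In SW620 cells the subunits were lower with TGFB1. They took 0.543% to 0.588% of counts in the 4 DMSO libraries and 0.399% to 0.439% in the 4 TGFB1 libraries. Of the 62 tested subunits, 6 fell and none rose with TGFB1, where 7.27% of all 15302 genes tested fell and 8.31% rose (edgeR's quasi-likelihood test, Benjamini-Hochberg adjusted p under 0.05). The median log2 fold change was -0.45, against 0.01 for all genes, and 58 of the 62 were below 0. DESeq2 called 8 subunits, all lower, where 1247 of all 14115 genes were lower and 1450 higher. The 6 were the complex II subunits SDHA and SDHB, the complex III subunits UQCRC2 and UQCRFS1, and the complex I accessory subunits NDUFA7 and NDUFC2.

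SDHA (ENSG00000073578, chromosome 5, 218241 to 256700 in GRCh38, plus strand) encodes the flavoprotein that oxidises succinate. With DMSO it was at 241 and 273 CPM in the vector libraries and 307 and 283 CPM in the Tet2CD libraries, and with TGFB1 at 182 and 193 CPM and at 206 and 219 CPM. All 4 TGFB1 libraries lay below all 4 DMSO libraries, and the difference was -0.46 on the log2 scale (SE 0.10, adjusted p = 0.00432). SDHB (ENSG00000117118, chromosome 1, 17018722 to 17054170, minus strand), the iron-sulfur subunit of the same complex, was at 104, 122, 108 and 94.0 CPM with DMSO and 79.8, 72.4, 63.3 and 80.3 CPM with TGFB1, in the same order of libraries. Again the groups did not overlap, and the log2 fold change was -0.53 (SE 0.13, adjusted p = 0.00996). For both genes this held in cells with either construct.

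UQCRC2 (ENSG00000140740, chromosome 16, 21952660 to 21983660, plus strand), a core protein of complex III, was the least scattered, at 170, 190, 175 and 186 CPM with DMSO and 142, 141, 139 and 140 CPM with TGFB1. Its log2 fold change was -0.36 (SE 0.096, adjusted p = 0.0159). UQCRFS1 (ENSG00000169021, chromosome 19, 29205321 to 29213541, minus strand), the Rieske iron-sulfur protein, fell from 99.0, 88.6, 89.6 and 82.3 CPM to 64.1, 59.2, 59.2 and 57.6 CPM, with a log2 difference of -0.58 (SE 0.16, adjusted p = 0.0228). For both genes the 4 TGFB1 libraries were the lowest 4.

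NDUFA7 (ENSG00000267855, chromosome 19, 8308768 to 8321396, minus strand) was at 50.1, 51.6, 42.2 and 45.5 CPM with DMSO and 24.0, 24.5, 34.5 and 34.9 CPM with TGFB1, and differed by -0.70 on the log2 scale (SE 0.21, adjusted p = 0.0276). The vector libraries were lower than the Tet2CD libraries among those with TGFB1. NDUFC2 (ENSG00000151366, chromosome 11, 78068304 to 78080219, minus strand) went from 76.7, 64.8, 78.7 and 81.8 CPM to 42.8, 39.6, 43.2 and 48.5 CPM, the widest of the 6 differences at -0.79 (SE 0.25, adjusted p = 0.0415). Neither gene's groups overlapped.

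The medians of the complexes were close to each other. They were -0.45 in complex I, with 2 of 36 genes passing, -0.49 in complex II with 2 of 4, -0.48 in complex III with 2 of 9, and -0.40 in complex IV with 0 of 12, while NDUFA4 was at -0.55 and did not pass. The 4 genes above 0 were UQCRHL (0.95, adjusted p = 0.211), COX6B2 (0.27), NDUFV3 (0.18) and COX7A2L (0.11), and none of them passed. For 45 of the 62 genes, all 4 TGFB1 libraries lay below all 4 DMSO libraries, against 15.7% of all genes, and for none did they lie above, against 15.3%. In vector cells alone the median was -0.48, and 53 genes were below (30.9% of all genes) and 1 above (33.8%). In Tet2CD cells it was -0.39, and 52 were below (29.4%) and 3 above (28.5%).

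Libraries 21, 22 and 23 belong to neither of these SW620 groups, but they enter the shared estimate of spread, the filter on low counts and the scaling. Without them the median of the 62 log2 fold changes was -0.47, close to that with 24 libraries, while their median SE was 0.11 instead of 0.27. With 21 libraries 48 genes fell, the 6 above among them, and none rose, against 18.6% and 16% of all 15769 genes tested then. The 48 were 27 of 36 in complex I, 4 of 4 in complex II, 7 of 9 in complex III, 9 of 12 in complex IV, and NDUFA4. The deepest were accessory complex I subunits, NDUFA13 at -0.92, NDUFB7 at -0.89, NDUFS5 at -0.87, NDUFC2 at -0.82 and NDUFA2 at -0.80. The mean length of the transcripts counted was 2656 to 2733 bases with DMSO and 2786 to 2839 bases with TGFB1 in SW620, and with the GC and length offset 31 genes fell, against 13.9% of all genes, with a median of -0.35. Leaving out any 1 of the 8 libraries left 2 to 4 genes, and SDHA passed each time. The count was 2 without Tet2CD TGFB1 replicate 1, and 3 without Tet2CD TGFB1 replicate 2, vector DMSO replicate 2 or vector TGFB1 replicate 2.

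**Figure D4:**
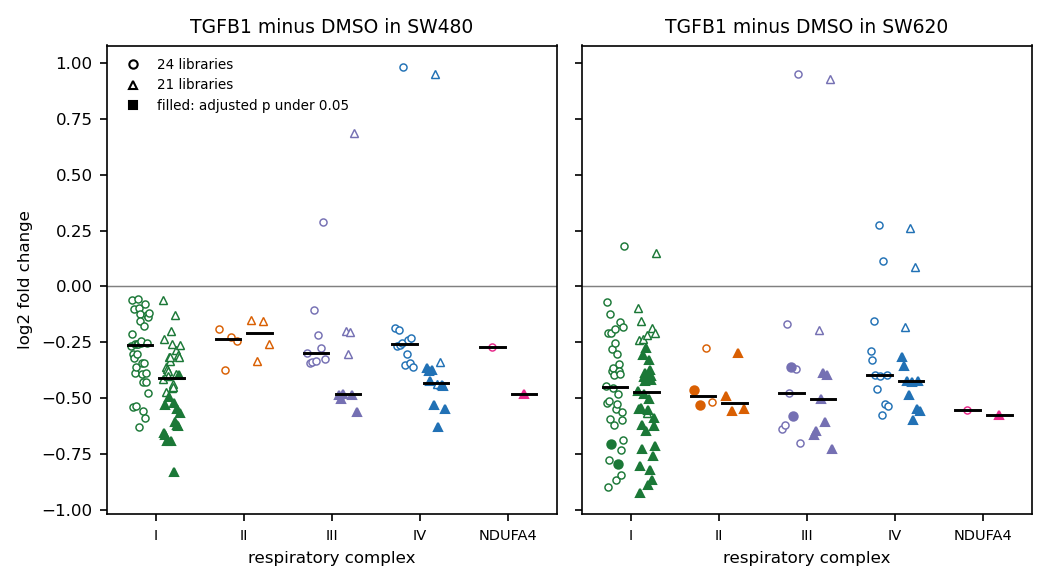
Log2 fold change of TGFB1 against DMSO for each tested gene, by complex, in SW480 and in SW620. Circles use all 24 libraries and triangles the 21 without libraries 21, 22 and 23, filled symbols have an adjusted p under 0.05, and bars are medians. In SW620 the complex medians with 24 libraries lie between -0.55 and -0.40, and nearly all points are below 0 in both lines.

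Other mitochondrial genes in SW620 were examined as lists. The shares to read them against are the 7.27% of all genes that fell and the 8.31% that rose. Of 16 ATP synthase subunits, 4 fell with TGFB1 and none rose (median -0.41), led by ATP5F1A (-0.49, adjusted p = 0.00792) and the catalytic subunit ATP5F1B (-0.51, adjusted p = 0.0139). CYC1, the c-type cytochrome of complex III, fell by 0.87 on the log2 scale (adjusted p = 0.00492). Its symbol falls outside the naming rule, so the complex III counts above leave it out. CYCS, on the same list of electron carriers, did not pass. Among 44 assembly factors 10 fell and none rose (median -0.37), including SCO1, a copper chaperone of complex IV (-0.64, adjusted p = 0.000547), and ACAD9, an assembly factor of complex I (-0.70, adjusted p = 0.00390). Of 14 citric acid cycle genes 3 fell, among them FH, which encodes fumarase (-0.63, adjusted p = 0.00725), and MDH2, which encodes malate dehydrogenase (-0.65, adjusted p = 0.0223). The biogenesis regulators PPRC1, a coactivator (-1.04, adjusted p = 0.000124), and TFB2M, a mitochondrial transcription factor (-0.81, adjusted p = 0.00856), were among 3 of 11 that fell. None of 77 cytosolic ribosomal protein genes passed in either direction, with a median of -0.06.

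In SW480 cells no subunit passed the test for TGFB1. With 24 libraries 0 of 62 rose and 0 fell, against 0.732% and 0.314% of all genes. With edgeR 9 subunits and 1967 of all 15302 genes had an unadjusted p under 0.05. The median log2 fold change was -0.26 and 60 of the 62 were below 0. Single libraries moved this median, to -0.64 without Tet2CD TGFB1 replicate 1, to -0.42 without Tet2CD DMSO replicate 2, to -0.10 (46 below 0) without Tet2CD DMSO replicate 1 and to -0.05 (41 below 0) without Tet2CD TGFB1 replicate 2. The smallest p belonged to UQCRC2, at 107, 104, 100 and 98.1 CPM with DMSO and 81.2, 72.9, 82.8 and 88.6 CPM with TGFB1 (vector replicates 1 and 2, then Tet2CD replicates 1 and 2). Its groups did not overlap, and its log2 fold change was -0.33 (SE 0.097, adjusted p = 0.126). Among the subunits DESeq2 called this gene alone, where 155 of all 13225 genes were lower and 247 higher. Over both constructs 2 genes were all below DMSO, against 1.48% of all genes, and 0 all above, against 1.99%.

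COX6B2, the testis isoform of a complex IV subunit that faces the intermembrane space, was 1 of 2 subunits above 0, with UQCRHL (0.29, adjusted p = 0.914). COX6B2 was at 5.58, 7.17, 14.5 and 14.4 CPM with DMSO and 13.3, 13.5, 28.2 and 25.9 CPM with TGFB1. Within each construct both TGFB1 libraries were above both DMSO libraries, while vector TGFB1 and Tet2CD DMSO overlapped, and the log2 fold change of 0.98 (SE 0.31, adjusted p = 0.155) did not pass. With no filter on low counts it was the only subunit called, where 192 of all 26424 genes rose and 105 fell.

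The SW480 comparison changed when libraries 21, 22 and 23 were left out. The median was then -0.41, and 29 genes fell and none rose, against 3.16% and 3.19% of all genes. They were 14 of 36 in complex I, 0 of 4 in complex II, 5 of 9 in complex III, 9 of 12 in complex IV, and NDUFA4. NDUFC1 had the deepest log2 fold change at -0.83, followed by NDUFA7 at -0.69, NDUFB3 at -0.69, NDUFA2 at -0.67, NDUFA12 at -0.65 and COX7A2 at -0.63. In the vector cells, which hold none of the 3 libraries, the median was -0.43, and both TGFB1 libraries were below both DMSO libraries for 53 of the 62 genes, against 25.8% of all genes. They were above for 3, NDUFS1, COX6B2 and UQCRHL, against 25.6%. In the Tet2CD cells 3 genes were below, against 10.9%, and 1 above, COX6B2, against 13.3%. With all 24 libraries and the GC and length offset 3 genes fell, NDUFB3 (-0.50), NDUFA7 (-0.49) and UQCR11 (-0.32), against 2.01% of all genes. When Tet2CD TGFB1 replicate 1 alone was left out, the median was -0.64, against -0.0036 for all genes.

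The other lists held few calls in SW480 with 24 libraries, where 0.314% of all genes fell and 0.732% rose. COA1, an assembly factor, fell by 0.59 on the log2 scale (adjusted p = 0.0364) and was 1 of 44. FH fell by 0.65 (adjusted p = 0.0427) and was 1 of 14 citric acid cycle genes. No ATP synthase gene, electron carrier, biogenesis regulator or cytosolic ribosomal protein gene passed. With 21 libraries 9 of 16 ATP synthase genes and 7 of 44 assembly factors fell, against 3.16% of all genes.

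With 24 libraries the response to TGFB1 was not shown to differ between the lines for any subunit. The test of SW480 minus SW620 then called 0 of 62 in either direction, against 0.902% of all genes higher and 1.17% lower. With these 24 libraries none had an unadjusted p under 0.05 with edgeR or was called by DESeq2. The smallest p values were those of SDHA, with a difference of 0.28 (adjusted p = 0.411), and COX7A2L, with -0.35 (adjusted p = 0.487). The median difference was 0.17 with 24 libraries, 0.08 with 21, and 0.13 with 21 and the GC and length offset. With 21 only replicate 2 of each SW480 Tet2CD group remains.

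RepSox and TGFB1 were compared with the same DMSO libraries, so their values are given side by side only. In SW620 cells RepSox called no subunit in either direction, against 2.01% of all genes higher and 2.68% lower. With edgeR 1 subunit and 2513 of all 15302 genes had an unadjusted p under 0.05, and DESeq2 called 0 subunits. The median was 0.19 and 58 of the 62 were above 0. SDHB was at 124 and 129 CPM in vector and 144 and 132 CPM in Tet2CD cells, above all 4 DMSO libraries, a difference of 0.31 on the log2 scale (SE 0.13, adjusted p = 0.228). NDUFB5, an accessory subunit of complex I, was at 0.40 (adjusted p = 0.344). For the 6 genes that fell with TGFB1 the RepSox libraries overlapped with or exceeded the DMSO libraries, for example 254, 301, 291 and 278 CPM for SDHA and 81.5, 73.8, 110 and 86.7 CPM for NDUFC2.

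All 4 RepSox libraries of SW620 exceeded all 4 DMSO libraries for 8 genes, UQCRC1, UQCRH, NDUFS1, NDUFS6, SDHB, SDHC, COX6C and COX7B, against 10.7% of all genes, and were below for 0, against 9.87%. In Tet2CD cells alone 45 genes were above, against 31.7%, and 1 below, against 27.3%, and in vector cells 19 above, against 24.8%, and 3 below, against 22.7%. With 21 libraries 9 genes rose and none fell, against 7.17% and 8.24% of all genes, and their log2 fold changes ran from 0.27 to 0.43. They were UQCRC1, UQCRQ and UQCR11 of complex III, COX6B1 and COX7B of complex IV, NDUFS5 and NDUFS6 of complex I, SDHB of complex II, and NDUFA4. Of the assembly factors COA1 (0.54, adjusted p = 0.0183) and SCO1 (0.38, adjusted p = 0.0442) rose with 24 libraries, and no gene of the other lists passed.

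In SW480 cells RepSox called no subunit, and none of the 15302 genes tested passed in either direction, 0% of all. With edgeR 433 genes and 0 of the 62 subunits had an unadjusted p under 0.05, and DESeq2 called 0 subunits. The median was 0.19 with 24 libraries, 0.02 with 21 and 0.05 with the GC and length offset, and it turned with single libraries. It was -0.18, with 57 of 62 below 0, without Tet2CD RepSox replicate 1, and 0.43 without Tet2CD RepSox replicate 2. It was 0.36 without Tet2CD DMSO replicate 1, 0.05 without Tet2CD DMSO replicate 2 and 0.11 without vector RepSox replicate 1. The accessory complex I subunits NDUFA3 (0.60, adjusted p = 1.00) and NDUFS4 (-0.33, adjusted p = 1.00) had the smallest p, and NDUFA3 was at -0.16 without Tet2CD RepSox replicate 1. No gene's groups were apart, against 0.405% of all genes above and 0.418% below. In vector cells 2 genes were above (15.5%) and 2 below (13.1%), and in Tet2CD cells 0 above (8.42%) and 1 below (8.83%). The test of a difference between the lines called no subunit either, against 0.699% of all genes higher and 0.327% lower, with 2 at an unadjusted p under 0.05, SDHB at -0.42 and UQCRC2 at -0.31, and DESeq2 called 0. Without SW480 Tet2CD RepSox replicate 2, 1 gene was called.

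Tet2CD against vector in SW480 gave the longest list of subunits, and it depended on libraries 21, 22 and 23. With 6 libraries a side, 52 of the 62 rose and 2 fell, against 29.2% and 25.3% of all genes. The median was 0.78, against 0.03 for all genes. By complex, 32 of 36 rose and 1 fell in complex I (median 0.78), 0 rose and 1 fell of 4 in complex II (-0.12), 7 of 9 rose in complex III (0.73), and 12 of 12 rose in complex IV (0.94), as did NDUFA4. With 21 libraries 16 rose and 1 fell, against 18.1% and 19.9% of all genes, with a median of 0.15. These 17 were all among the first 54. The GC and length offset on 24 libraries gave 30 higher and 5 lower, against 24.8% and 22.8%, with a median of 0.23. In the same comparison 62 of 77 cytosolic ribosomal protein genes rose with 24 libraries (median 0.70) and 0 with 21 (median -0.04).

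NDUFS8 (ENSG00000110717, chromosome 11, 68030617 to 68036644, plus strand), a core iron-sulfur subunit of complex I, was the one gene above vector in every library. It was at 255, 281 and 542 CPM in libraries 21, 22 and 23, at 124, 102 and 135 CPM in the other SW480 Tet2CD libraries, and at 53.5 to 92.8 CPM in the 6 vector libraries. Its log2 fold change was 1.57 (SE 0.29, adjusted p = 0.000403) with 24 libraries, 0.62 with 21, and 0.44 (adjusted p = 0.000613) with the GC and length offset. Its transcript is GC-rich for the set, at 61.2%, and 768 bases long. Tet2CD libraries were all above vector libraries for 1 subunit, against 10.5% of all genes, and all below for 1, against 9.66%. Without libraries 21, 22 and 23 they were above for 2, NDUFS8 and COX6B2, against 14.2%, and below for 1, against 11.6%.

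The other was NDUFS1 (ENSG00000023228, chromosome 2, 206114817 to 206159603, minus strand), the largest iron-sulfur subunit of complex I. It was at 100, 64.6 and 55.1 CPM in libraries 21, 22 and 23, at 136, 105 and 125 CPM in the other SW480 Tet2CD libraries, and at 137 to 165 CPM with vector. Its log2 fold change was -0.67 (SE 0.16, adjusted p = 0.00258) with 24 libraries, -0.37 with 21, and -0.25 (adjusted p = 0.00712) with the offset. At 2857 bases and 43.0% GC its transcript was long and GC-poor for the set.

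Of the other genes with large changes, NDUFB1 (ENSG00000183648, chromosome 14, 92116122 to 92121917, minus strand), a small accessory subunit of complex I, was at 121, 133 and 245 CPM in the 3 libraries, 71.3, 48.6 and 75.3 CPM in their replicates and 35.0 to 54.9 CPM with vector. Its log2 fold change was 1.32 (SE 0.26, adjusted p = 0.000683), 0.52 with 21 libraries, and 0.69 (adjusted p = 4.39e-05) with the offset. NDUFA13 (1.45), NDUFA3 (1.42) and NDUFA2 (1.34), also accessory subunits, were at 0.45, 0.37 and 0.48 with 21 libraries and 0.38, 0.24 and 0.62 with the offset, and passed each time. UQCRHL (1.71, adjusted p = 0.0107) and the complex II anchor SDHC (-0.28, adjusted p = 0.0385) did not pass with 21 libraries or when some single libraries were left out, but passed with the offset.

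COX6B2 was the member whose value moved least between 24 and 21 libraries. Its log2 fold change was 1.13 (SE 0.26, adjusted p = 0.00205) with 24 libraries, 1.15 with 21, and 0.71 (adjusted p = 0.0270) with the offset. It was at 14.5, 28.2 and 13.3 CPM in libraries 21, 22 and 23, at 14.4, 25.9 and 17.8 CPM in their replicates, and at 5.16 to 13.5 CPM with vector. The replicate 1 and 2 ranges overlapped each other, and within each treatment both Tet2CD libraries exceeded both vector libraries. With 21 libraries the other genes that rose had log2 fold changes from 0.25 to 0.39 and were NDUFA1, NDUFA6, NDUFA11, NDUFB5, NDUFB7 and NDUFC2 of complex I, UQCR11 of complex III, and COX5B, COX6B1 and COX8A of complex IV.

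**Figure D5:**
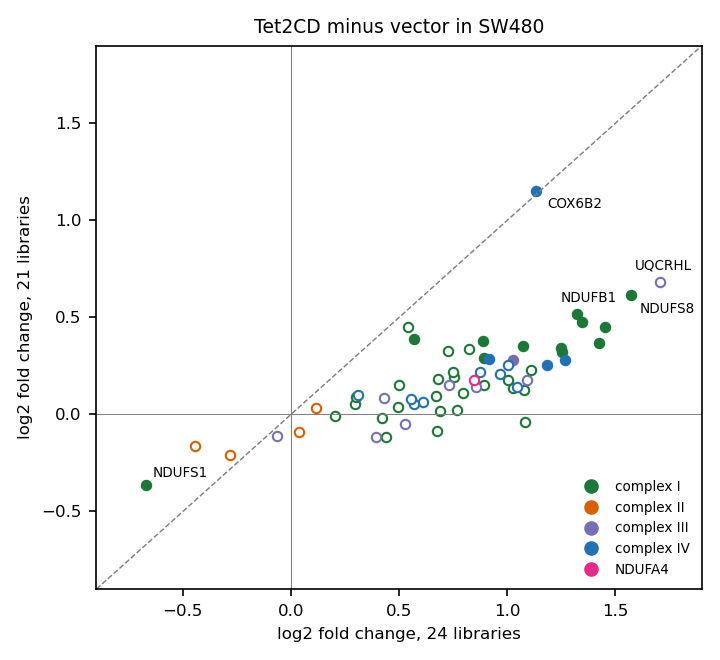
Log2 fold change of Tet2CD against vector in SW480 for each tested gene, with 24 libraries on the horizontal axis and with 21 on the vertical axis, coloured by complex. Filled points have an adjusted p under 0.05 with 21 libraries, and the dashed line marks equal values. Most points lie far below the line, while COX6B2 lies on it at 1.15 and NDUFS1 is below 0 on both axes.

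Genes around the chain differed in the same comparison, in which 29.2% of all genes rose and 25.3% fell with 24 libraries. Except where 21 libraries are named, the list counts rest on libraries 21, 22 and 23 as well. They may therefore move without those libraries, as the subunit counts did. With 24 libraries 12 of 16 ATP synthase subunits rose (median 0.81), and the median was 0.13 with 21. ATP5F1E was at 1.51 (adjusted p = 0.000694) with 24 libraries and at 0.53 with 21. Among 44 assembly factors 23 rose and 3 fell, including SURF1, needed for complex IV (1.32, adjusted p = 0.000436), and LRPPRC, which stabilises mitochondrial mRNA (-0.67, adjusted p = 5.16e-05). With 21 libraries LRPPRC was at -0.58 and SURF1 at 0.63. Of 14 citric acid cycle genes 7 rose and 4 fell, the falls being near the share of all genes, and CS, which encodes citrate synthase, was at -0.54 (adjusted p = 4.31e-05). Of 11 biogenesis regulators 2 rose and 6 fell, PPRC1 at -0.87 (adjusted p = 4.00e-05) and MYC at -1.22 (adjusted p = 3.59e-05), and 1 rose and 6 fell with 21 libraries. Neither electron carrier passed.

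In SW620 cells Tet2CD called no subunit with 24 libraries, against 0.274% of all genes higher and 0.0392% lower, and with edgeR none had an unadjusted p under 0.05 and DESeq2 called 0. NDUFV3 (0.34, adjusted p = 0.810) and SDHA (0.14, adjusted p = 0.811) had the smallest p, and the median was 0.11. No gene's groups were apart, against 0.366% of all genes above and 0.15% below. With 21 libraries UQCR11 (0.39), NDUFA13 (0.35), NDUFA1 (0.35) and NDUFV3 (0.35) rose and none fell, against 2.05% and 0.913% of all genes.

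The difference between the lines in the Tet2CD effect was tested itself. With 24 libraries it was larger in SW480 for 4 subunits and lower for 1, against 10.2% and 9.93% of all genes, and the median difference was 0.64. NDUFB1 differed by 1.39 (SE 0.38, adjusted p = 0.0186), NDUFS8 by 1.38 (SE 0.40, adjusted p = 0.0256), NDUFA11 by 1.19 (SE 0.39, adjusted p = 0.0410), NDUFS4 by 0.76 (SE 0.24, adjusted p = 0.0367) and NDUFS1 by -0.67 (SE 0.22, adjusted p = 0.0447). NDUFB1 was at 14.1 to 31.6 CPM in SW620 Tet2CD libraries and 19.5 to 26.0 CPM with vector, and NDUFS8 at 53.5 to 87.4 CPM and 45.3 to 89.4 CPM, so the SW620 groups overlapped. With 21 libraries NDUFB1 (0.57), NDUFS8 (0.41) and NDUFS1 (-0.37) still passed, against 7.54% of all genes higher and 12% lower, while NDUFS4 (0.35) and NDUFA11 (0.25) did not. For Tet2CD in SW480, calls among all genes moved when single libraries were left out. Counts in such fits alone therefore do not describe a change particular to the subunits. The count for the line difference moved as well. It was 47 without SW480 Tet2CD RepSox replicate 2, 39 without SW480 Tet2CD TGFB1 replicate 2 and 14 without SW480 Tet2CD DMSO replicate 2, and 1 to 5 in each other case. NDUFB1 was the one gene that passed every time.

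SW620 and SW480 vector cells differed in both directions. Over 3 treatments and 6 libraries a side, 11 of the 62 were higher in SW620 and 15 lower, against 30% and 28.9% of all genes, and the median was -0.03. Complex I had 4 higher and 10 lower, complex II 2 higher, complex III 4 higher and 1 lower, and complex IV 1 higher and 3 lower, and NDUFA4 was lower. With 21 libraries, where the 3 left out belong to neither group, 15 were higher and 27 lower, against 33.4% and 36.3%. When only DMSO libraries were used, 2 were higher and 2 lower, against 2564 and 2722 of all 15302 genes.

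Among the genes higher in SW620 were UQCRC2 at 0.84 (SE 0.079, adjusted p = 9.38e-08), NDUFS4 at 0.78 (adjusted p = 0.000938), NDUFB8 at 0.76 (adjusted p = 0.00444), UQCRB at 0.58 (adjusted p = 0.0209) and UQCRHL at 1.65 (adjusted p = 0.00892). UQCRC2 had a lowest, median and highest level of 72.9, 101 and 107 CPM in SW480 and 141, 174 and 196 CPM in SW620, with no overlap. NDUFS4 went from 10.6, 15.7 and 25.0 CPM to 24.3, 28.0 and 31.9 CPM, and its ranges overlapped. Smaller rises were found for SDHC, SDHA, COX7C, UQCRH and NDUFA10, from 0.25 to 0.56.

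Lower in SW620 were NDUFA12 at -1.35 (SE 0.19, adjusted p = 1.42e-05), COX6B2 at -1.41 (SE 0.31, adjusted p = 0.000791), NDUFA4 at -1.02 (adjusted p = 0.000957), NDUFA3 at -1.01 (adjusted p = 0.0168), NDUFB1 at -0.98 (adjusted p = 0.00468) and NDUFB10 at -0.98 (adjusted p = 0.00633). NDUFA12 (ENSG00000184752, chromosome 12, 94897055 to 95003770, minus strand), a late-joining accessory subunit of complex I, was at 55.3, 85.7 and 117 CPM in SW480 and 26.2, 34.2 and 35.8 CPM in SW620. NDUFA4 was at 129, 159 and 235 CPM and at 58.7, 90.2 and 113 CPM. NDUFB1 was at 35.0, 44.1 and 54.9 CPM and at 19.5, 22.2 and 26.0 CPM, and COX6B2 at 5.16, 7.66 and 13.5 CPM and at 1.80, 3.50 and 4.33 CPM. These 4 genes had no overlap between the lines. In all, SW620 vector libraries were above SW480 for 5 genes and below for 9, against 19.2% and 19.5% of all genes. The other genes that were lower lay between -0.96 and -0.35, among them NDUFB5, UQCRQ, NDUFC1 and NDUFV3.

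The other lists also held genes of both directions, where 30% of all genes were higher and 28.9% lower. Of 16 ATP synthase subunits 2 were higher and 4 lower in SW620, with ATP5MC2 at 0.99 (adjusted p = 8.63e-05) and ATP5MF at -1.82 (adjusted p = 8.25e-06). CYCS, cytochrome c itself, was lower by -0.87 (adjusted p = 0.000355). Assembly factors had 13 higher and 10 lower of 44, and citric acid cycle genes 3 higher and 3 lower of 14, with IDH2 at 0.78 (adjusted p = 2.97e-05) and OGDH at -0.42 (adjusted p = 0.00209). Of 11 biogenesis regulators 5 were higher and none lower, TFB1M at 1.39 (adjusted p = 9.58e-07) and TFAM at 0.88 (adjusted p = 0.00116). Of 77 cytosolic ribosomal protein genes 36 were higher and none lower, with a median of 0.45.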

How the data were processed

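RNA from 24 libraries was prepared by the study with TRIzol and an Illumina TruSeq kit and sequenced on a NextSeq 500. The authors trimmed reads with Trimmomatic and estimated gene levels with RSEM and bowtie2 on an Ensembl transcriptome. The study also names a GC-content normalisation, and whether the deposited expected counts carry it was not determined. The submitters' processing notes list Bowtie, RSEM and a mouse build (mm10), although the gene identifiers are human, and the sources used here do not state whether counting used strand. Per the file headers, each table deposited by the authors holds RSEM expected counts, TPM and FPKM per gene (FPKM was not used).

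Expected counts were rounded and tested with edgeR 4.0.16 in R 4.3.3 (TMM scaling, filterByExpr, 1 mean per group, quasi-likelihood test, Benjamini-Hochberg threshold 0.05 over 15302 genes). The 12 groups shared 1 spread, with 12 residual degrees of freedom and a common biological coefficient of variation of 21.27%. TGFB1 and RepSox effects average both constructs, and Tet2CD effects average the 3 treatments. CPM are TMM-scaled, and fold changes are log2. Symbols, GC content and coordinates come from GENCODE release 29 (GRCh38), and promoters from RefSeq. GC and length offsets used a lowess smooth (span 0.3). Alternatives included DESeq2 1.42.0. Scripts were tested on simulated data. Members, lists and tests were chosen with earlier results of these data known. Members past the threshold were named when 12 or fewer, otherwise the 6 largest rises and 6 largest falls, and with none the 2 smallest p, with up to 2 per direction from each other list. Genes outside this rule were chosen after their values were seen. A gene that the rule would name is not reported here.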

Additional observations from a re-analysis of the deposited data

Results flagged for a closer look

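By the test of the difference itself, the Tet2CD effect differed between the lines for 5 of the 62 tested subunits. It was higher in SW480 for 4 and lower for 1, smaller shares than the 10.2% and 9.93% of all genes. All 5 belong to complex I, as do 36 of the 62. The effect in SW480 minus that in SW620 was 1.39 on the log2 scale for NDUFB1, 1.38 for NDUFS8, 1.19 for NDUFA11, 0.76 for NDUFS4 and -0.67 for NDUFS1. NDUFB1, NDUFS8 and NDUFS1 passed without libraries 21, 22 and 23, and NDUFA11 and NDUFS4 did not. When single libraries were left out, NDUFB1 was the one gene that passed every time.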

How the results depend on the processing

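Counts are of the 62 tested subunits past the threshold in either direction, and the offset for GC content and length was chosen after seeing the data. For Tet2CD in SW480 the count was 54. It became 17 without libraries 21, 22 and 23, 21 with a GC offset and without them, 35 with the GC and length offset, 17 with that offset and without them, 34 on that line alone and 0 on DMSO libraries only. For Tet2CD in SW620 it went from 0 to 4, 1 and 2 in the 3 settings without the libraries and to 6 on that line alone. The line difference in that effect went from 5 to 34 with no filter, 10 with a GC offset, 3 in each setting without the libraries, 9 with the GC and length offset, 13 with a term for library number, 15 with DESeq2 and 0 on DMSO libraries only. For SW620 minus SW480 it went from 26 to 42, 41 and 42 without the libraries and to 4 on DMSO libraries only. For TGFB1 in SW480 it went from 0 to 29, 34 and 15 without the libraries, 3 with the GC and length offset, 1 with no filter and 1 with DESeq2. For TGFB1 in SW620 it went from 6 to 48, 48 and 43 without the libraries, 31 with the GC and length offset, 19 with no filter, 49 on that line alone and 1 in vector cells only. For RepSox in SW620 it went from 0 to 9, 11 and 12 without the libraries, 3 with the GC and length offset and 13 on that line alone. The TGFB1 line difference went from 0 to 4 without the libraries with the GC and length offset. The RepSox line difference went from 0 to 1 without them, with either offset. Calls among all genes moved with the setting too, so these counts alone do not describe a change particular to the subunits. For Tet2CD in SW480, 4466 of 15302 genes rose and 3870 fell, and 641 and 394 on DMSO libraries only. For TGFB1 in SW620, 1271 of 15302 rose and 1112 fell, and 2818 and 2943 of 13965 on that line alone. Fewer libraries or genes entered several of these fits, and beyond that the cause was not tested.

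With single libraries left out, counts ran from 37 to 58 for Tet2CD in SW480, from 0 to 0 in SW620 and from 1 to 47 for their difference. They ran from 20 to 24 for SW620 minus SW480, from 0 to 2 for TGFB1 in SW480, from 2 to 4 in SW620 and from 0 to 0 for their difference. For RepSox they ran from 0 to 0 in SW480 and in SW620 and from 0 to 1 for their difference. Among single named genes, 821 values kept their direction and side of the threshold, 162 were no longer past it, 12 were newly past it, and NDUFA3 with RepSox in SW480 reversed to -0.16 without Tet2CD RepSox replicate 1 and reached 0.96 without Tet2CD RepSox replicate 2, from 0.60. Calls among all genes moved with the library left out too, so the counts of subunits alone do not describe a change particular to them. Library numbers run from 21 to 32 and from 33 to 44. Each run holds the 12 groups once, and nothing says that a run is a shared batch. A term for the run, which acts as a replicate block, gave 56 for Tet2CD in SW480, 29 for SW620 minus SW480, 8 for TGFB1 in SW620, 13 for the line difference in the Tet2CD effect, and 0 for the other 6 comparisons. The replicate 1 minus replicate 2 difference correlated over 15302 genes by -0.24 to 0.71 between groups, above 0.1 in 12 of 66 pairs of groups, so the libraries are taken to share a number only. With 2 libraries a group and 2146123 to 4410567 counts, genes with few counts such as UQCRHL are imprecise.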
